A study of Homo sapiens with 3 samples.

Results

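The cyclins and cyclin-dependent kinases (CDKs) that drive human cells from G1 through S phase to mitosis were examined in H9 cells, an established human embryonic stem cell line. The genes were chosen by symbol, and the rule used no measured value, though earlier results of these data were known. They were the D-type cyclins CCND1, CCND2 and CCND3, the E-type cyclins CCNE1 and CCNE2, the A-type cyclin CCNA2, and the kinases CDK1, CDK2, CDK4 and CDK6. All 10 were found among the 58051 genes in the count files. The series holds 3 replicates of 1 condition, wild-type H9 cells with no treatment, grown without feeder cells in Essential 8 Flex medium on vitronectin, and the RNA of all of them was isolated in parallel. Total RNA was depleted of ribosomal RNA before library preparation. The labels do not say whether the replicates came from separate cultures, so the spread between them may be technical.

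A CDK is active only when bound to a cyclin, and the abundance of the cyclins rises and falls through the cycle. D-type cyclins activate CDK4 and CDK6 in G1, and these kinases start the phosphorylation of the retinoblastoma protein, which releases E2F transcription factors. E-type cyclins then activate CDK2 at the start of DNA replication. Cyclin A2 binds CDK2 in S phase and CDK1 later, and B-type cyclins bind CDK1 for entry into mitosis. Embryonic stem cells are known for a short G1 phase and for a large share of cells in S phase. Firing of replication origins, the subject of the study, depends on CDK activity.

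The libraries held 10390984, 12024802 and 8655155 reads on genes in replicates 1, 2 and 3, and the 10 genes together took 0.212%, 0.211% and 0.201% of them. Levels are given as TPM, which divides the reads of a gene by the summed length of its annotated exons and scales each library to the same total, so that levels of different genes can be compared per length. All 6 markers of pluripotent cells that were examined, POU5F1, NANOG, SOX2, LIN28A, DNMT3B and TDGF1, lay between 275 and 2576 TPM. Of 10 markers of differentiated cells, 8 were at or below 1.75 TPM, among them NEUROG2 and CDX2 with no read, and the other two were COL1A1 at 14.6 TPM and MIXL1 at 22.3 TPM. Replicate 3 stood somewhat apart. Over 9386 protein-coding genes with at least 100 reads in every library, the log2 ratio of its TPM to the mean of the other libraries had an SD of 0.171, against 0.132 for replicate 1 and 0.119 for replicate 2.

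All 10 genes were expressed in every replicate, from a mean of 13.0 TPM in CCNE2 to 464 TPM in CCND1. In order of mean level they were CCND1, CCND2, CCNA2, CDK4, CDK1, CCNE1, CDK2, CDK6, CCND3 and CCNE2. With the classes of the study applied to these values (nonexpressed below 0.01 TPM, the rest divided into 3 quantiles), 8 of the 10 were in the high class, above 26.96 TPM, where 28.8% of all protein-coding genes lay. CCND3 and CCNE2 were in the medium class, which began at 3.35 TPM. Each gene received the same class in all 3 replicates. The median over the 10 genes was 98.1 TPM, and that over all 19629 protein-coding genes was 7.10 TPM. In bulk RNA, more cells in the phase that uses a gene and more RNA per cell cannot be told apart.

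**Figure D1:**
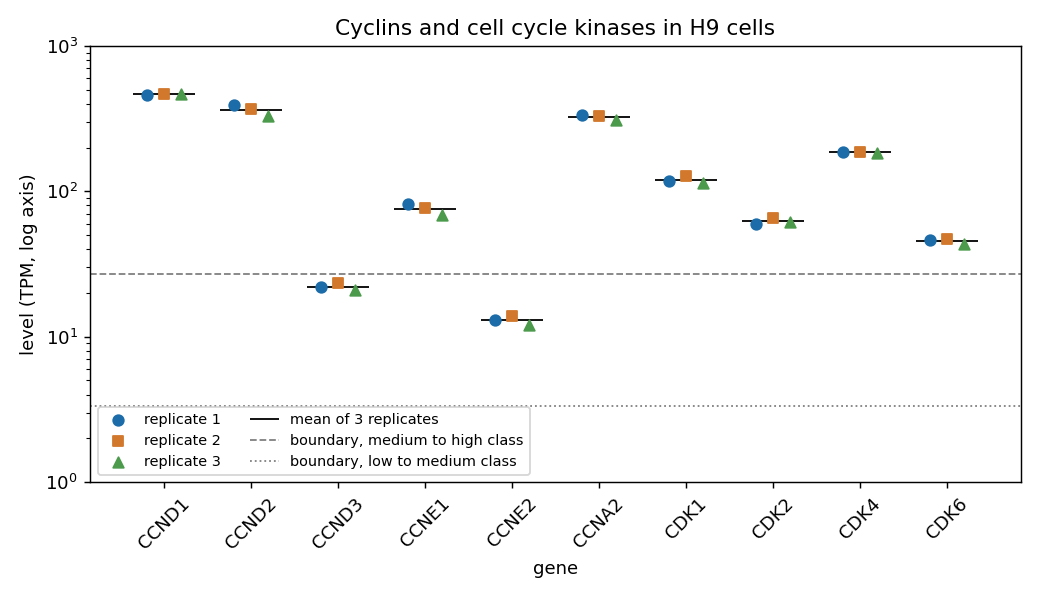
Level of each gene in TPM (log axis) in each of the 3 replicates, with a bar at the mean. Dashed and dotted lines mark the class boundaries at 26.96 and 3.35 TPM, and only CCND3 and CCNE2 lie between them.

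Cyclin D1 and cyclin D2 transcripts made up nearly all of the D-type cyclin RNA, and CCND3 was a minor component. CCND1 (ENSG00000110092, chromosome 11, 69641156 to 69654474, plus strand, GRCh38), the gene of cyclin D1, had 5715, 6708 and 4907 reads, or 461, 466 and 464 TPM, in replicates 1, 2 and 3. Its mean of 464 ± 2.31 TPM (SD, n = 3) was the highest of the 10 genes, and 98.9% of protein-coding genes lay below it. The 3 libraries hardly differed at this gene. CCND2 (ENSG00000118971, chromosome 12, 4269771 to 4305353, plus strand), which encodes cyclin D2, had the most reads of all, at 8116, 8930 and 5861, but also a longer exon sequence of 7988 bases against 4761 for CCND1. Per length it reached 390, 369 and 331 TPM, with a mean of 363 ± 30.3 TPM (SD, n = 3). Replicate 3 was the lowest, and without it the mean was 380 TPM. Every CCND2 value was below every CCND1 value.

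CCND3 (ENSG00000112576, chromosome 6, 41934934 to 42050357, minus strand), the gene of the third D-type cyclin, had 330, 405 and 267 reads. These gave 22.0, 23.2 and 20.9 TPM, with a mean of 22.0 ± 1.18 TPM (SD, n = 3). Together the D-type cyclins held 849 ± 29.8 TPM (SD, n = 3), of which CCND1 contributed 54.7%, CCND2 42.8% and CCND3 2.60%. The level of CCND3 depends on the length it is divided by. Its annotated exons sum to 5761 bases, most of them outside the 2026-base MANE Select transcript, the one that RefSeq and Ensembl hold in common as the standard for a gene. Divided by MANE Select lengths throughout, CCND3 had 39.1 TPM, which placed it in the high class and above CDK6. It was lower than both of the other D-type cyclins by either length.

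Of the E-type cyclins, which start S phase with CDK2, CCNE1 was the more abundant transcript. CCNE1 (ENSG00000105173, chromosome 19, 29811991 to 29824312, plus strand) had 525, 572 and 378 reads and 81.9, 76.8 and 69.2 TPM, with a mean of 76.0 ± 6.41 TPM (SD, n = 3). Replicate 3 was again lowest. CCNE2 (ENSG00000175305, chromosome 8, 94879770 to 94896678, minus strand) had 150, 185 and 117 reads, the fewest of the 10 genes, and 13.1, 13.9 and 12.0 TPM. Its mean of 13.0 ± 0.962 TPM (SD, n = 3) was above that of 58.4% of protein-coding genes. The values of the E-type cyclins lay far apart in every library, and CCNE1 gave 85.4 ± 0.780% (SD, n = 3) of their summed TPM.

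CCNA2 (ENSG00000145386, chromosome 4, 121816444 to 121823883, minus strand) encodes cyclin A2, the cyclin of S and G2 phase in dividing somatic cells. It had 2384, 2740 and 1878 reads and 333, 329 and 308 TPM, with a mean of 324 ± 13.7 TPM (SD, n = 3). This was well above the mean of CCNE1 and close to that of CCND2. CCND2 was above CCNA2 in each of the 3 replicates, but the lowest CCND2 value, in replicate 3, was below the highest CCNA2 value, in replicate 1. As a share of the TPM of the 6 cyclins, CCNA2 varied little, at 25.6 ± 0.115% (SD, n = 3).

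The kinases were expressed at lower levels than their most abundant cyclins, and CDK4 led them. CDK4 (ENSG00000135446, chromosome 12, 57747727 to 57756013, minus strand), a partner of the D-type cyclins, had 1505, 1746 and 1260 reads and 187, 186 and 183 TPM, with a mean of 186 ± 1.85 TPM (SD, n = 3). CDK6 (ENSG00000105810, chromosome 7, 92604921 to 92836573, minus strand), its close relative with the same partners, had almost as many reads, at 1481, 1739 and 1184. Its exons sum to 12239 bases, of which 978 are coding, and per length it had 46.5, 47.0 and 43.6 TPM, with a mean of 45.7 ± 1.82 TPM (SD, n = 3). The pair were thus nearly level in reads and differed in level per length.

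CDK1 (ENSG00000170312, chromosome 10, 60778331 to 60794852, plus strand), the mitotic kinase, had 1199, 1519 and 995 reads and 118, 128 and 115 TPM, with a mean of 120.3 ± 7.19 TPM (SD, n = 3). CDK2 (ENSG00000123374, chromosome 12, 55966781 to 55972789, plus strand), the kinase of cyclins E and A, had 605, 774 and 534 reads and 59.8, 65.8 and 61.9 TPM, with a mean of 62.5 ± 3.05 TPM (SD, n = 3). Replicate 2 was the highest for both. Of the summed TPM of the kinases, 414 ± 12.3 (SD, n = 3), CDK4 held 44.8%, CDK1 29.0%, CDK2 15.1% and CDK6 11.0%. The summed TPM of the 6 cyclins was 1262 ± 50.5 (SD, n = 3).

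For 6 of the 10 genes, RefSeq (GRCh38.p14) gave promoter windows of 250 bases before and 50 bases after an annotated start, 10 windows in all. They were searched on both strands for short elements known from cell cycle promoters: the CCAAT box (CCAAT), the cell cycle homology region (TTTGAA), the E-box bound by MYC and related factors (CACGTG), and 4 forms of the E2F element (TTTCCCGC, TTTCGCGC, TTTGCCGC and TTTGGCGC). The GC box (GGGCGG), the element of SP1, was searched as well and is not marked. Windows of 3 genes are shown, chosen after the matches were seen because the stretch before their start that lies outside annotated exons holds 1 or more, and capitals mark the matches. CCNA2 has 1 CCAAT box, in reverse orientation, CDK1 has 1 cell cycle homology region and 1 CCAAT box in the stretch shown, and CDK4 has 2 E-boxes in the stretch shown and 3 in its whole window.
CCNA2, chr4:121823884-121824133, minus strand: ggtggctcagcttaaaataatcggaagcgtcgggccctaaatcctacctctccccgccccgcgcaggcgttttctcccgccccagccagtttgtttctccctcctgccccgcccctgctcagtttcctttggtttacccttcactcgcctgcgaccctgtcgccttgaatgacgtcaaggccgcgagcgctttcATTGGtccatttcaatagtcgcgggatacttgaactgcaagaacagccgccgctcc
CDK1, chr10:60778081-60778330, plus strand: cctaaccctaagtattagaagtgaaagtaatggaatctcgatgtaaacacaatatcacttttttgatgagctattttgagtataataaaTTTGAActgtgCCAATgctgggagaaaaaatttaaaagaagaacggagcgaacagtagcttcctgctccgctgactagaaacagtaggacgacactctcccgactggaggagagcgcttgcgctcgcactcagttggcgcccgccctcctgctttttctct
CDK4, chr12:57752448-57752560, minus strand: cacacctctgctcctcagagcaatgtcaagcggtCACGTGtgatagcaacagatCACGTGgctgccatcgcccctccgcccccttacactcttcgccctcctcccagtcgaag

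A second window of CDK1, which starts further downstream, held 3 cell cycle homology regions, 2 CCAAT boxes and 1 E2F element. The single window of CCNE1 held 7 GC boxes and none of the other elements. Over all 35116 windows in the reference, 34.6% held a CCAAT box, 15.2% a cell cycle homology region, 7.26% an E-box and 3.31% an E2F element, and 15786 of them held a GC box. Of the 10 windows of these genes, 5 held a CCAAT box, 2 each a cell cycle homology region, an E-box and an E2F element, and 8 a GC box. Windows of 1 gene are not independent, and the 5 with a CCAAT box are those of CCND3, CCNA2 and CDK1 only. Both windows with TTTGAA, the only form of the cell cycle homology region searched, and both with an E2F element, are those of CDK1. These overlap and hold the same single E2F element, so it belongs to 1 gene. These are matches of letters, and the counts do not bear on whether a factor binds there. A window without a match may hold other forms of an element, which were not searched.

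Which member of each family is the more abundant was asked with 6 ratios, each taken within a library so that depth cancels. CCND1 exceeded CCND2 by 1.28-fold, with a log2 ratio of 0.24, 0.33 and 0.49 in replicates 1, 2 and 3 and a mean of 0.35 ± 0.13 (SD, n = 3). CCND1 exceeded CCND3 by 21.1-fold, at a log2 ratio of 4.40 ± 0.08 (SD, n = 3), and CCND2 exceeded CCND3 by 16.5-fold, at 4.04 ± 0.09 (SD, n = 3). The ratio of CCNE1 to CCNE2 was 5.84-fold, between 5.52 and 6.25 in the replicates. Among the kinases, CDK1 was 1.92-fold above CDK2, between 1.85 and 1.97, and CDK4 was 4.07-fold above CDK6, between 3.97 and 4.21. Each ratio had the same sign in 3 of 3 replicates, and each mean log2 ratio was larger than its SD. The exact two-sided sign-flip permutation test gave p = 0.25 for every pair, also after adjustment over the 6 pairs, and this is the smallest p that 3 replicates allow.

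Each of these ratios moved by more than its SD over the replicates under MANE Select lengths, but not under every other length. For CCND1 to CCND2 the move was small, to a log2 ratio of 0.22. That ratio stayed within its SD with the longest transcript, at 0.301, and with unshared exon length, at 0.299. With MANE Select lengths, an alternative chosen after the exon lengths had been seen, CCND1 was 8.32-fold above CCND3, CCND2 was 7.12-fold above CCND3 and CDK4 was 6.43-fold above CDK6. With the exon length that no other gene shares, and all reads of each gene kept, CCNE1 was 3.67-fold above CCNE2 and CDK4 was 7.24-fold above CDK6. Without division by length, CCNE1 was 3.27-fold above CCNE2, CCND2 had more reads than CCND1, a ratio of CCND1 to CCND2 of 0.762, and CDK4 and CDK6 were level at 1.03-fold. Every other ratio kept its direction on these scales.

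**Figure D2:**
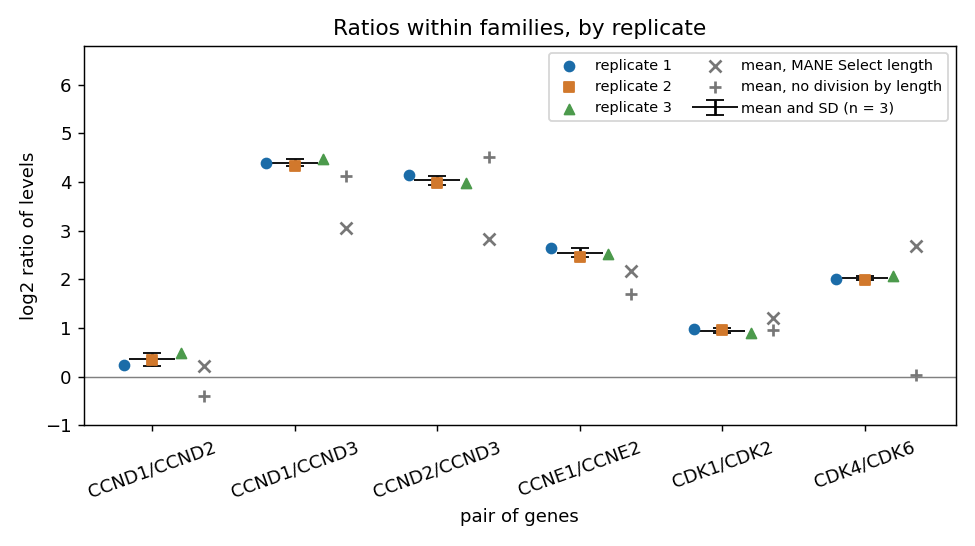
Log2 ratio of the TPM of both genes in each pair, by replicate, with the mean and SD (n = 3). Crosses give the mean with MANE Select lengths and plus signs that of reads not divided by length, where CCND1/CCND2 falls below 0 (-0.39) and CDK4/CDK6 comes to 0.04.

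Neighbors in the order of mean TPM were compared by their ranges. Of the 9 neighboring pairs, 8 had ranges over the 3 replicates that did not overlap. The exception was CCND2 and CCNA2, whose ranges did not overlap when replicate 1 or replicate 3 was left out. The smallest gaps elsewhere were between CCNE1 and CDK2, at 1.22-fold, and between CCND1 and CCND2, at 1.28-fold. Under MANE Select lengths CDK2, at 67.6 TPM, passed CCNE1, at 59.7 TPM, and CCND3 passed CDK6, at 29.9 TPM.

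The spread between replicates differed widely among the 10 genes. The coefficient of variation (CV) of TPM had a median of 5.11% over the 10 genes, against 5.03% over all genes of the high class. CCND1 varied by 0.498% and CDK4 by 0.996%, less than the 1.33% and 2.60% that counting error alone gives at their depth. The CV of CCND2 was 8.34%, 7.17 times its counting error of 1.16%, although it had the most reads. CCNE1 varied by 8.44% against a counting error of 4.58%, CDK1 varied by 5.98% against 2.89%, while the CV of CCNA2, 4.23%, was 2.02 times its counting error. For CCND3 and CCNE2, the genes with the fewest reads, the CV of 5.33% and 7.40% was within the 5.55% and 8.29% of counting error. Differences between their replicates were thus not told from counting error at this depth. CDK2 at 4.88% and CDK6 at 3.99% were above their counting errors of 4.01% and 2.64%. A correction for GC content turned the order of CV and counting error in 3 genes. The CV of CCND1 became 1.45% and that of CCND3 7.11%, both above counting error, and that of CDK6 became 1.68%, below it. A CV over 3 replicates is itself imprecise, and whether any CV here differs from counting error was not tested. It also lowered the CV of CCNA2 to 2.39% and that of CDK4 to 0.528%, each on the same side of counting error as before. Counting error takes reads as independent molecules, which PCR duplicates are not.

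**Figure D3:**
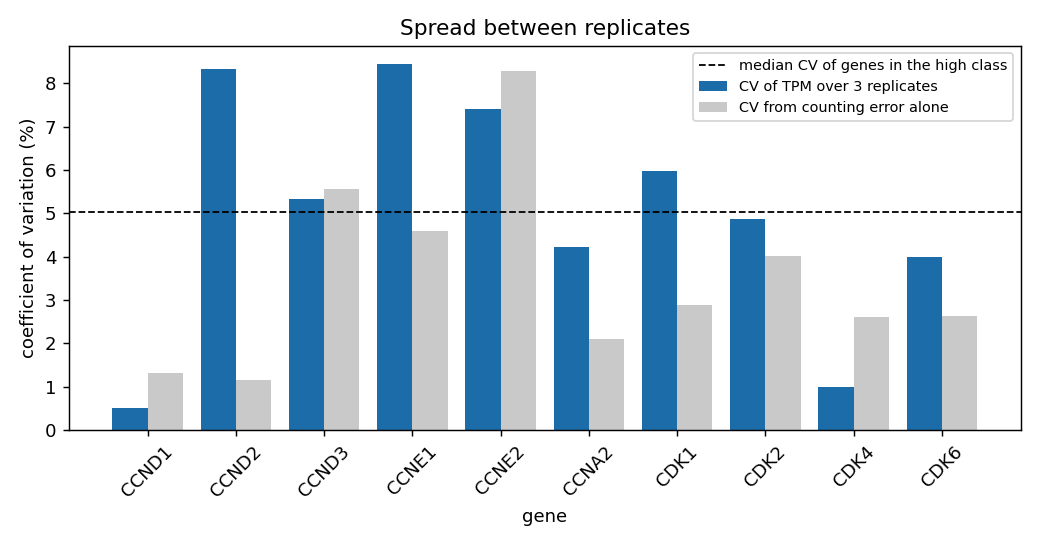
Coefficient of variation of TPM over the 3 replicates (blue) and that expected from counting error alone (grey), in percent, with the median of genes in the high class dashed. CCND2 has the widest gap between its bars, and CCND1 and CDK4 lie below their counting error.

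Replicate 3 was the low library for most of these genes. Its TPM was below the mean of the other libraries for 9 of the 10, by up to 0.20 on the log2 scale in CCND2 and CCNE1, and CCND1 was the exception. Over the 9386 genes above, 58.7% were lower in replicate 3. Replicate 2 was higher than the mean of the others for all 10 genes, as were 55.5% of the 9386. Corrected for GC content, replicate 2 was just below that mean on the log2 scale for CCND1 (-0.007), CCNA2 (-0.0009) and CDK4 (-0.0003). It stayed above for the other genes. The GC content of the 10 genes ran from 36.9% in CCNE2 to 56.2% in CCND3. After a correction for GC content, the deviation of replicate 3 on the log2 scale was smaller for CCNA2 (from -0.11 to -0.05), CDK1 (from -0.10 to -0.05), CDK6 (from -0.10 to -0.04) CCNE2 (from -0.17 to -0.12) and CCND2 (from -0.20 to -0.15). It was nearly as large for CCNE1, from -0.20 to -0.18, and larger for CCND3, from -0.12 to -0.17, and for CCND1, from 0.003 to 0.034. The part of GC content in these differences was not tested further.

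**Figure D4:**
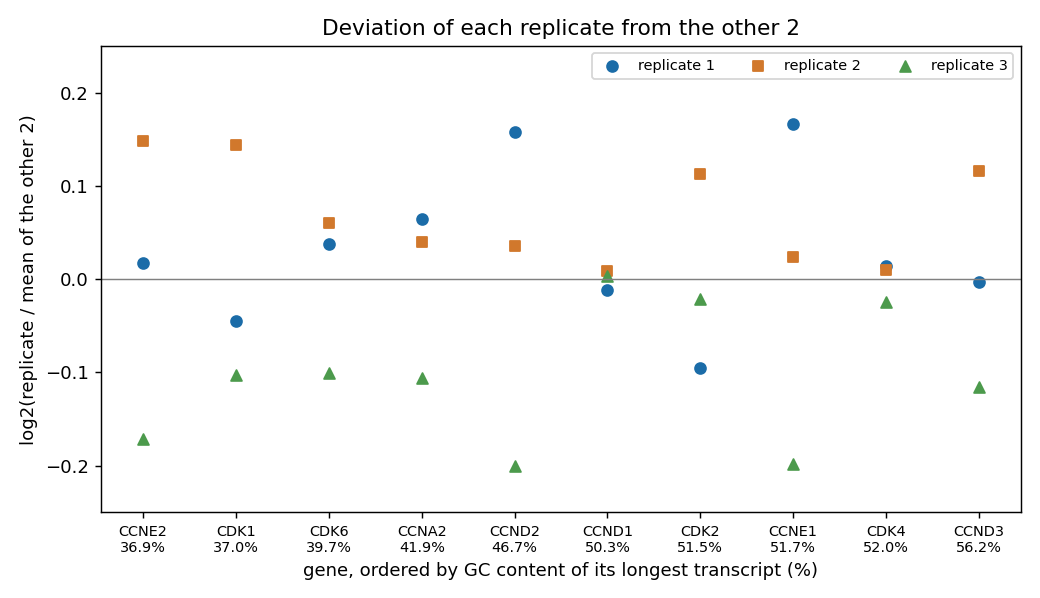
Log2 ratio of the TPM of each replicate to the mean of the other libraries, for each gene in order of GC content (percent under each name). The triangles of replicate 3 lie below 0 for 9 genes, lowest in CCND2 and CCNE1, and the squares of replicate 2 lie above 0 for all 10.

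Genes that share exons with a cyclin or kinase bear on their counts, because the sources used here do not give the strand setting of the counting. Exons of TSPAN31 cover 44.2% of the exon length of CDK4, the largest share among the 10 genes. TSPAN31 is a tetraspanin gene on the opposite strand and had 941, 1097 and 704 reads, a density per kb 0.358 times that of CDK4. For CCNE2, 37.0% is covered by INTS8, an Integrator subunit gene on the opposite strand with 863, 1065 and 761 reads and a density per kb 3.33 times that of CCNE2. Divided by the exon length that no other gene shares, CDK4 came to 320 TPM and CCNE2 to 19.9 TPM, while CDK4 stayed 4th and CCNE2 10th in the order. All reads of each gene were kept in this division, so both levels are too high if reads in shared exons were counted. How reads in the shared parts were assigned was not tested.

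The other overlaps were smaller. LTO1 covers 10.4% of the exon length of CCND1 and EXOSC9 covers 9.24% of that of CCNA2, both from the opposite strand. A read-through gene on the same strand, ENSG00000285901, covers 12.5% of the exon length of CCND2 and is not among the counted identifiers. PMEL shares 2.29% of CDK2. The noncoding gene ENSG00000258554 lies wholly within exons of CDK2 on the opposite strand and had 34, 43 and 42 reads, a density per kb 0.428 times that of CDK2. The antisense genes CCND2-AS1, with 2 reads in each replicate, and CDK6-AS1, with 6, 15 and 4, share 2.03% and 0.703% of the exons of their partners. Without strand, reads of a gene and of its antisense partner cannot be told apart. ENSG00000223946, over CCND3, and ENSG00000272509, over CCNE2, share 0.417% and 0.0910% and had 0 and 2 reads in each replicate, and ENSG00000290063, over CCND2, is not among the counted identifiers. The pseudogenes CCND2P1, CCND3P1, CCND3P2 and CDK4P1 had no read in any replicate, which allows up to 3 reads each. Copies were sought with the longest transcript of each gene. Apart from the overlapping genes, no transcript of another gene matched that of CCND1, CCND2, CCNE1, CCNE2, CCNA2, CDK1, CDK2 or CDK6 over 100 bases or more at 90% identity, and CDK4 and CCND3 had matches of at most 260 bases. Exons outside the longest transcript were not searched, and for CDK1 it holds 1948 of 3909 exon bases.

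The genes around these cyclins and kinases were described by 6 lists. Counts in the high class are to be read beside the 28.8% of all protein-coding genes that lay in it. Of 21 other cyclins, 13 were in the high class, 6 in the medium and 2 in the low class, with a median of 51.0 TPM. CCNB1, whose product is the main mitotic partner of CDK1, was the highest, at 490 ± 30.6 TPM (SD, n = 3), above CCND1 in mean by less than its SD. CCNB2, the other B-type cyclin of dividing cells, had 132 ± 6.54 TPM (SD, n = 3), close to CDK1. CCNG1 and CCNI, cyclins without a settled role in cycle progression, had 438 ± 33.1 and 317 ± 4.54 TPM (SD, n = 3). The lowest were CCNB3, a cyclin of meiotic cells, with 0, 2 and 0 reads, CCNO, which acts in multiciliated cells, with 0, 1 and 0, and CCNA1, the germ line counterpart of CCNA2, at 5.09 ± 1.04 TPM (SD, n = 3). Of the A-type cyclins, CCNA2 was thus far the higher, at 324 against 5.09 TPM.

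Of 17 other CDKs, 6 were in the high class, 7 in the medium and 4 in the low class, with a median of 24.2 TPM. Each of CDK9, CDK14 and CDK7, the highest, lay below CDK1 and above CDK2, at 97.5 ± 5.06, 87.7 ± 4.44 and 86.7 ± 3.75 TPM (SD, n = 3). CDK9 serves transcription elongation. CDK7 forms the kinase that activates the cell cycle CDKs, together with cyclin H, whose gene CCNH had 19.9 ± 0.922 TPM, and MNAT1, at 29.4 ± 2.00 TPM (SD, n = 3). CDK15 with 0, 0 and 1 reads, CDK3 with 3, 7 and 1, and CDK20 at 1.96 ± 0.549 TPM (SD, n = 3) were the lowest, and CDK3 has only 8.58% of its exon length to itself.

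All 7 activators and cofactors of the kinases were in the high class, with a median of 119 TPM. CKS2 and CKS1B, small proteins that bind CDKs and aid the recognition of their substrates, had 496 ± 14.7 and 177 ± 7.99 TPM (SD, n = 3), and MNAT1 and CDC25C, a phosphatase that activates CDK1, were lowest, the latter at 33.3 ± 0.597 TPM (SD, n = 3). Of 9 inhibitory kinases and inhibitors, 2 were in the high class, 3 in the medium, 3 in the low class and 1 was nonexpressed, with a median of 7.49 TPM. The 2 were WEE1 and PKMYT1, the kinases that place inhibitory phosphates on CDK1, at 68.5 ± 2.17 and 42.8 ± 6.10 TPM (SD, n = 3). Among the inhibitors of CDK4 and CDK6, CDKN2A had no read in any replicate, which allows up to 3 reads per library, and CDKN2C had 3, 1 and 0 reads. No CDK inhibitor of this list was in the high class, which held 28.8% of all protein-coding genes. CDKN1C, CDKN1B and CDKN1A were in the medium class, at 21.6 ± 4.64, 14.6 ± 1.10 and 7.49 ± 1.35 TPM (SD, n = 3).

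Of 7 genes for the degradation of cyclins, 4 were in the high class. CDC20, an activator of the anaphase-promoting complex, had 353 ± 18.4 TPM, and FBXO5, an inhibitor of that complex, had 63.7 ± 4.89 TPM (SD, n = 3). FBXW7, which marks cyclin E for degradation, had 12.7 ± 1.22 TPM (SD, n = 3), and FBXO4 was lowest, with 3, 6 and 9 reads. Of 8 genes downstream, the retinoblastoma family and E2F factors, 4 were in the high and 4 in the medium class. E2F4 and E2F3 were the highest, at 97.1 ± 4.08 and 81.3 ± 4.53 TPM, and E2F2 and RBL2 the lowest, at 14.1 ± 0.627 and 15.7 ± 0.833 TPM (SD, n = 3). These classes describe levels in 1 condition, and no test between lists was made.

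**Figure D5:**
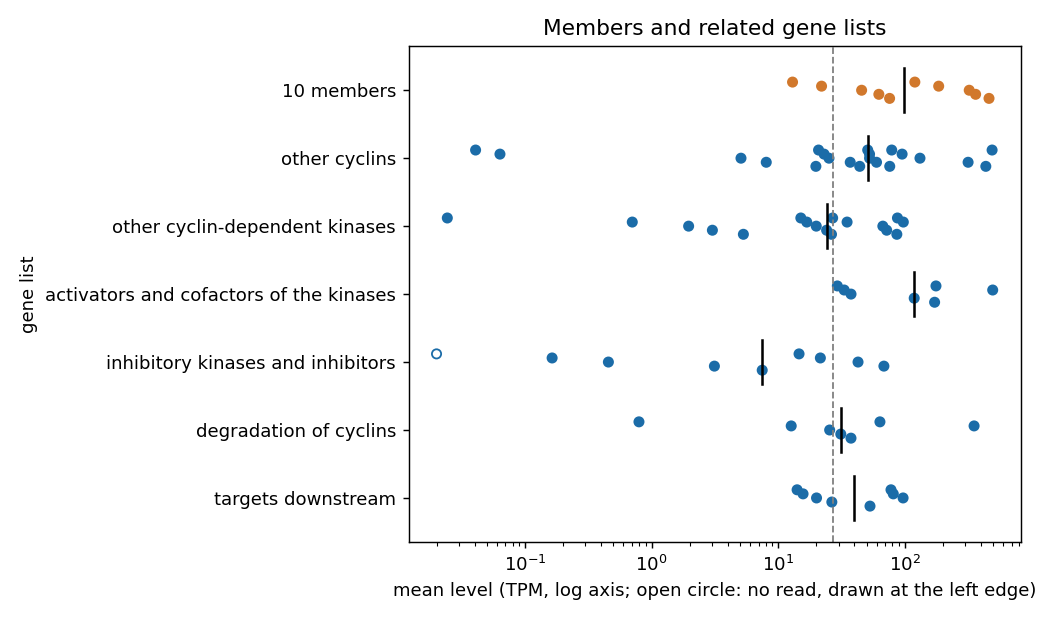
Mean TPM (log axis) of each gene, as a point, for the 10 cyclins and kinases (orange) and 6 lists of related genes (blue), with the median of each list as a bar and the lower limit of the high class dashed at 26.96 TPM. The list of inhibitory kinases and inhibitors has the lowest median, 7.49 TPM, and the activators and cofactors the highest, 119 TPM.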

How the data were processed

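RNA-seq counts of 3 H9 replicates were analyzed. The authors trimmed the reads with Trim Galore (0.4.4) and aligned them to GRCh38 with TopHat2 (2.1.1), and the deposited counts are whole reads per gene, without normalization. How reads were counted (tool, annotation, strand) is not given in the sources used here. The cufflinks levels of the study were not used. Identifiers were matched to GENCODE release 44 on the same build (56948 of 58051). TPM used the union of exons. Classes follow the methods of the study, over protein-coding genes. Counting error was the root mean of the inverse counts. Code was tested on simulated data. Alternatives were other gene lengths, CPM, edgeR (4.0.16) TMM or DESeq2 (1.42.0) size factors, filters and left-out replicates. Near-identical copies were sought with blastn (2.17.0) of the longest transcript of each gene, and exon overlap in the annotation. GC content was corrected in 20 bins of genes. Python 3.11.15 and R 4.3.3 were used. With 1 condition no groups were compared. All 10 genes were named in full. From the related lists, the highest and lowest by mean TPM (3 each in lists of over 10 genes, otherwise 2 each) and the main partners of the kinases were named. CDKN1A, CDKN1B and CDKN1C were named in addition. The genes and lists were chosen with earlier results of these data known.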

Additional observations from a re-analysis of the deposited data

How the results depend on the processing

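The number of the 10 genes in the high class, 8, was 9 with the longest or the MANE Select transcript as gene length, where CCND3 joined, and 10 when all genes were classified, and it was 8 under each of the other settings. Of the 45 pairs among the genes, 40 kept their order with CPM, 43 with MANE Select lengths, 44 with the longest transcript and 45 otherwise. The log2 ratio of CCND1 to CCND2 reversed to -0.39 with CPM, which does not divide by length, and was 0.22 with MANE Select lengths. For CCND1 to CCND3 it was 3.30 with the longest transcript, 4.55 with unshared exon length, 4.12 with CPM and 3.06 with MANE Select lengths. For CCND2 to CCND3 the values were 3.00, 4.25, 4.51 and 2.83 in the same order. CCNE1 to CCNE2 gave 1.88 with unshared exon length, 1.71 with CPM and 2.16 with MANE Select lengths. CDK1 to CDK2 gave 1.37 with the longest transcript, 0.68 with unshared exon length and 1.20 with MANE Select lengths. CDK4 to CDK6 gave 2.68, 2.86, 0.040 and 2.68 with the longest transcript, unshared exon length, CPM and MANE Select lengths. These changes follow from the lengths alone, since the reads are the same. With TMM or DESeq2 factors, none of the 10 levels moved by more than its SD. The median CV of 5.11% lay between 3.86% and 6.31% with 1 replicate left out, and was 4.37% after GC correction. No paired analysis was possible because there is 1 condition. Depth limits CCNE2, whose spread was within counting error before and after GC correction (5.21%), while that of CCND3 was within it only before.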
